A study of Mus musculus with 48 samples.

Results

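The 10 tubulin genes Tuba1a, Tuba1b, Tuba1c, Tuba4a, Tuba8, Tubb2a, Tubb2b, Tubb3, Tubb5 and Tubb6 were followed through 4 hindlimb muscles before birth and in adulthood. They are 5 alpha-tubulin and 5 beta-tubulin genes among 27179 genes of the count table. The family was chosen by measured values, since Tuba8 had the largest rise with stage among the genes looked at, so adult and E18.5 levels of the members are given as a description, with no test. All mice were male FVB/NJ, an inbred laboratory strain, and carried no engineered allele and received no agent. The groups were adult soleus, adult vastus intermedius, adult gastrocnemius and adult vastus lateralis, and these muscles at E18.5, shortly before birth. Each stage had 6 animals, and each animal gave 1 library of every muscle. Soleus in the shank and vastus intermedius in the thigh are slow-biased, with many slow fibres, and their fast-biased counterparts are gastrocnemius in the shank and vastus lateralis in the thigh. Per the series design text the adults were at postnatal day 56, and per the growth protocol adult mice were obtained at 3 to 4 months. The library labelled adult vastus intermedius of animal B had an embryonic profile and was left out, which left 47 libraries, 5 of them of adult vastus intermedius. The date tags of the libraries differ between the stages, so stage and date cannot be told apart.

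Alpha- and beta-tubulin form the heterodimer that polymerises into microtubules, and mammals have several genes for each, whose proteins differ mainly in the acidic tail at the carboxyl terminus. In multinucleated muscle fibres microtubules run along the fibre and around the nuclei, and they guide growth, nuclear positioning and transport. Most alpha-tubulins end in a tyrosine that vasohibins remove and tubulin tyrosine ligase puts back, a cycle that marks long-lived microtubules. Tubulin messages are also destabilised when free tubulin dimers are abundant, a feedback that reads the first amino acids of the nascent chain.

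The last coding bases show the tail in which the family members differ, and so they are printed here for 7 members, 5′ to 3′ on the coding strand, from the GENCODE M21 transcripts (build GRCm38, the same assembly as the mm10 build of the counts). Capitals mark the last codon before the stop codon.
Tuba1c: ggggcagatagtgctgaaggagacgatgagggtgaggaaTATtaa
Tuba4a: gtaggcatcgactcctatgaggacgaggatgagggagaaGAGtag
Tuba8: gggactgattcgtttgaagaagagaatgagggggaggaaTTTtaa
Tubb2a: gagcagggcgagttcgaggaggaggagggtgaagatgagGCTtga
Tubb2b: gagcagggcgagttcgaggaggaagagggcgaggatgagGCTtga
Tubb3: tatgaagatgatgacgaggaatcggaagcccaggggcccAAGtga
Tubb5: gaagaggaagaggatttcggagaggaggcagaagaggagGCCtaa

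These stretches lie in the last coding exon at chr15:99037965-99038009 (Tuba1c, plus strand), chr1:75215622-75215666 (Tuba4a, minus strand) and chr6:121226035-121226079 (Tuba8, plus strand). The beta stretches lie at chr13:34074468-34074512 (Tubb2a, minus strand), chr13:34127471-34127515 (Tubb2b, minus strand), chr8:123421638-123421682 (Tubb3, plus strand) and chr17:35834982-35835026 (Tubb5, minus strand). TAT encodes tyrosine, so Tuba1c encodes the terminal tyrosine of the cycle, as its near-identical paralogs Tuba1a and Tuba1b also do. Tuba4a ends in GAG, a glutamate codon, and Tuba8 in TTT, a phenylalanine codon. Tubb6 lies on chromosome 18 and its sequence is not given.

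Tuba1a, Tuba1b and Tuba1c are nearly identical, which makes the split of their counts uncertain. Their coding sequences shared 97.1% to 98.3% of aligned bases pairwise, against 84.7% to 85.2% with Tuba4a and 79.2% to 80.3% with Tuba8. Of all stretches of 50 bases in the coding sequence, 93.9% of Tuba1a, 95.6% of Tuba1b and 90.6% of Tuba1c also occurred in transcripts of another gene. The share was 2.39% in Tuba4a and 19.3% in Tuba8. Tubb2a and Tubb2b were 96.5% identical and shared 60.0% and 65.1% of such stretches. In Tubb5 it was 0.0778%, and no stretch of Tubb3 or Tubb6 was shared. The counting of reads that match several genes was not given in the sources used here. A level of a Tuba1 or Tubb2 gene may therefore miss reads or hold a paralog's. The downstream end of Tuba4a overlaps Stk16 on the opposite strand, and the strand setting of the counting was not given either. Over all Tuba4a transcripts, noncoding parts included, 35.4% of stretches of 50 bases occurred in another gene on either strand, most of all in Stk16.

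Tuba8, a divergent alpha-tubulin of striated muscle and brain, was close to absent at E18.5 and abundant in adult muscle. Levels are given in CPM, counts scaled to the size of each library, which was adjusted by the trimmed mean of M-values (TMM). In adult soleus its lowest, median and highest levels were 121, 141 and 186 CPM, and the 5 libraries of adult vastus intermedius had 164, 174, 192, 199 and 219 CPM. In adult gastrocnemius they were 260, 279 and 359 CPM, and in adult vastus lateralis 353, 401 and 606 CPM. At E18.5 no library of any muscle reached 1 CPM. The lowest, median and highest levels there were 0, 0.106 and 0.318 CPM in soleus, 0.188, 0.416 and 0.532 CPM in vastus intermedius, 0.0625, 0.128 and 0.296 CPM in gastrocnemius, and 0.0795, 0.369 and 0.732 CPM in vastus lateralis. In counts, the 23 adult libraries held 96281 Tuba8 reads and the 24 E18.5 libraries 209, with 0 in E18.5 soleus of animals C and D. The upper limit behind a count of 0 is 3 counts, or between 0.093 and 0.201 CPM depending on the library, so many E18.5 levels lie near the limit of detection. On the ratio of group mean CPM, adult Tuba8 was 1145 times the E18.5 level in soleus and 1777 times in gastrocnemius, and in the thigh it was 498 times that level in vastus intermedius and 1154 times in vastus lateralis. The ratio of pooled counts over pooled totals, without TMM, was 510 (exact 95% interval 446 to 587, counting error only).

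Tuba4a, an alpha-tubulin that like Tuba8 encodes no terminal tyrosine, was also higher in adults, but from a level that was already high at E18.5. It averaged 809 ± 129 CPM in adult soleus and 106 ± 43.4 CPM in E18.5 soleus (SD, n = 6 each). In vastus intermedius it averaged 993 ± 115 CPM in adults (n = 5) and 186 ± 37.8 CPM at E18.5 (n = 6). Adult gastrocnemius had 1289 ± 51.0 CPM and E18.5 gastrocnemius 102 ± 25.9 CPM, and adult vastus lateralis had 1615 ± 396 CPM and E18.5 vastus lateralis 208 ± 42.6 CPM (n = 6 each). The adult and E18.5 ranges did not overlap in any muscle, and the adult mean was 5.32 to 12.6 times the E18.5 mean.

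The upstream sequences of Tuba8 and Tuba4a, the members higher in adults with no overlap, are shown because their levels moved in the same direction across stage and muscle. They are the 250 bases before the annotated start in the RefSeq promoter table (GRCm38.p6), chr6:121210484-121210733 on the plus strand for Tuba8 and chr1:75219295-75219544 on the minus strand for Tuba4a. The Tuba4a gene is annotated up to position 75221261, so its stretch lies inside the annotated gene. The bases before that further upstream end are not shown. Capitals mark the E-box CANNTG, a core that basic helix-loop-helix factors such as the myogenic factors bind.
Tuba8: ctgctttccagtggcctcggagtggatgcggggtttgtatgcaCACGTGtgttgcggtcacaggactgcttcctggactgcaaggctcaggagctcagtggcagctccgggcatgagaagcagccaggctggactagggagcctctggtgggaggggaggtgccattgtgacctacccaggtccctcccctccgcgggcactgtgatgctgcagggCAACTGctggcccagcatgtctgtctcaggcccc
Tuba4a: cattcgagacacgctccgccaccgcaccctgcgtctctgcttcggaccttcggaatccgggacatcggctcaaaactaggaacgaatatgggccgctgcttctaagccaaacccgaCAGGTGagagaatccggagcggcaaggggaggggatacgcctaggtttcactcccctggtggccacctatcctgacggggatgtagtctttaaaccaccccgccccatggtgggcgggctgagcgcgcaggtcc

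CANNTG occurred 2 times in the Tuba8 stretch and 1 time in that of Tuba4a, and on either strand in 66.2% of all 32851 promoter stretches of this length. The stretch of Tuba4a held 20 CG pairs and that of Tuba8 held 7, against a median of 6 over all promoters.

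The tyrosine-encoding alpha-tubulins Tuba1a and Tuba1b, major tubulins of neurons and dividing cells, and Tuba1c were lower in adults. Over all muscles Tuba1a averaged 5.92 CPM in adults, where the lowest library had 2.54 CPM and the median was 5.68 CPM, and it ranged from 37.6 to 58.0 CPM at E18.5 (mean 46.8). Tuba1b ranged from 2.79 to 8.57 CPM in adults and from 34.2 to 64.7 CPM at E18.5. Tuba1c ranged from 0.558 to 3.20 CPM in adults and from 6.64 to 11.9 CPM at E18.5. No adult library reached the lowest E18.5 library for any of the 3 genes, and adult means were lower by factors of 3.81 to 13.5 in the 4 muscles.

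Among the beta-tubulins, Tubb2b, known for its part in neuronal migration, had the lowest adult level relative to E18.5. It ranged from 2.38 to 5.70 CPM in adult soleus and from 115 to 169 CPM in E18.5 soleus. Adult vastus intermedius had 2.55, 2.56, 2.68, 3.64 and 4.96 CPM, against 121 to 186 CPM at E18.5. Adult gastrocnemius had 0.986 to 1.61 CPM, against 116 to 184 CPM at E18.5, and adult vastus lateralis had 0.512 to 2.39 CPM, against 107 to 177 CPM at E18.5. The adult mean was lower by a factor of 36.3 in soleus and 118 in gastrocnemius, and by 46.4 in vastus intermedius and 85.7 in vastus lateralis.

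Tubb6, a beta-tubulin of differentiating and regenerating muscle, was the member with the highest beta level per kilobase at both stages. It ranged from 20.9 to 41.2 CPM in adults (median 30.6) and from 229 to 417 CPM at E18.5 (median 315). Tubb2a, the close paralog of Tubb2b, ranged from 6.49 to 31.5 CPM in adults and from 60.6 to 91.0 CPM at E18.5. Both were lower in adults with no overlap, Tubb6 by factors of 7.60 to 12.8 and Tubb2a by factors of 3.64 to 6.67.

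Tubb3, the neuronal beta-tubulin, was scarce in both stages, with 99 counts in all adult libraries and 85 in all E18.5 libraries, and 6 libraries of each stage held none. The adult and E18.5 ranges overlapped in soleus, gastrocnemius and vastus lateralis. In vastus intermedius they did not (0.218 to 0.480 CPM in adults and 0 to 0.200 CPM at E18.5), but these are at most 9 counts a library. Tubb5, a widely expressed beta-tubulin of proliferating cells, was also scarce and erratic. Adult libraries ranged from 0 to 12.3 CPM (median 3.43) and E18.5 libraries from 0.205 to 0.857 CPM (median 0.533). In 4 adult libraries it had at most 2 counts: soleus of animal E, gastrocnemius of animal A, vastus lateralis of animal B and vastus intermedius of animal F, while the others held 24 to 108. The genes on either side of it were detected in every library, Flot1 at 32.8 to 73.5 CPM in adults and 11.7 to 21.5 CPM at E18.5, and Mdc1 at 0.634 to 6.34 CPM in adults and 12.5 to 19.4 CPM at E18.5. Markers of cycling cells summed to 2.03 to 10.4 CPM in adults and 524 to 868 CPM at E18.5. Whether reads of Tubb5 were lost in the counting was not tested.

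**Figure D1:**
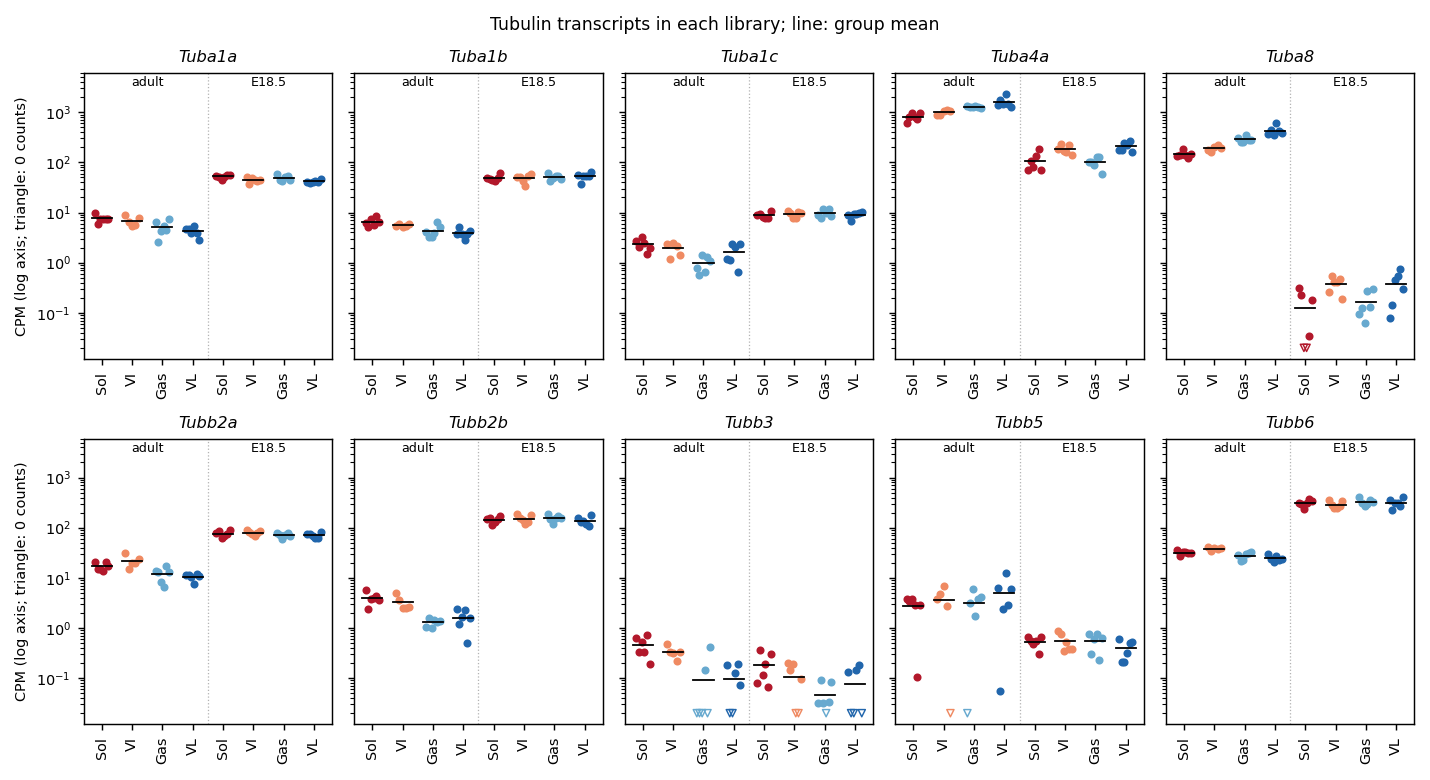
Each point is 1 library, in CPM on a log axis, with adult groups left of E18.5 groups (Sol, soleus; VI, vastus intermedius; Gas, gastrocnemius; VL, vastus lateralis), lines at group means, and open triangles for libraries with 0 counts. Tuba8 lies at 121 to 606 CPM in adults and at or below 0.732 CPM at E18.5, and Tuba1a, Tuba1b, Tuba1c, Tubb2a, Tubb2b and Tubb6 lie lower in adults.

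All these stage ratios depend on the scaling. On plain library totals the log2 ratio of adult over E18.5 was lower in every muscle, so that for Tuba8 it was 8.22 to 9.66 in place of 8.96 to 10.80, for Tuba4a 1.66 to 2.53 in place of 2.41 to 3.66, and for Tubb2b -8.02 to -5.90 in place of -6.88 to -5.18. In whole muscle, fewer cells of a type and less RNA per cell cannot be told apart. Cell type markers moved with stage. Fibroblast markers summed to 875 to 2534 CPM in adults and 8366 to 19041 CPM at E18.5, and satellite cell and myoblast markers to 33.9 to 85.1 CPM in adults and 326 to 603 CPM at E18.5. Fibre markers summed to 75242 to 349434 CPM in adults and 16038 to 59792 CPM at E18.5. Their part in the stage differences was not tested. In the fit on all genes, 4 of the 10 members were called higher and 6 lower in adults. Since 83.7% of all genes were called between stages (adjusted p under 0.05) and stage chose the family, nothing is read from this count.

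The alpha-tubulin message changed composition along with its level. Shares were taken per kilobase of gene model over the 5 alpha members. In adults Tuba4a made up 75.4% ± 2.94 and Tuba8 23.4% ± 3.37 (SD, n = 23 libraries). At E18.5 Tuba4a made up 50.6% ± 11.2, Tuba1b 23.8% ± 5.27, Tuba1a 22.1% ± 5.83, Tuba1c 3.46% ± 0.836 and Tuba8 0.125% ± 0.0801 (n = 24 libraries). The 3 genes that end in a tyrosine codon together made up 1.20% ± 0.672 in adults (range 0.389% to 2.86%) and 49.3% ± 11.2 at E18.5 (range 33.3% to 69.2%). Within adults that share had a median of 1.87% in soleus and 1.42% in vastus intermedius, and of 0.744% in gastrocnemius and 0.607% in vastus lateralis. Since Tuba1 reads may be missing where they match several genes, these shares hold for the counts as deposited. Tuba8 took a smaller share in the slow-biased muscle of every adult animal, with a mean difference of -4.09 percentage points in soleus minus gastrocnemius (lower in 6 of 6 animals) and -6.52 points in vastus intermedius minus vastus lateralis (lower in 5 of 5).

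**Figure D2:**
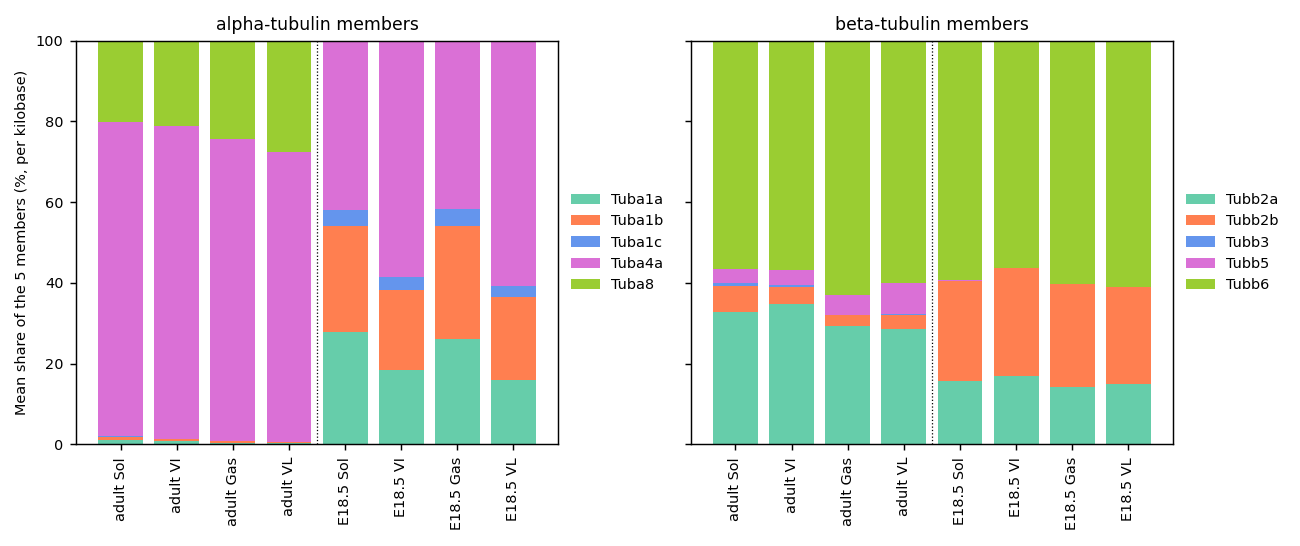
Bars show the mean share of each member in the summed level of its family's 5 members, in percent per kilobase, for adult groups (left) and E18.5 groups (right). Tuba4a and Tuba8 fill nearly all of the adult alpha bars, and Tuba1a and Tuba1b take 22.1% and 23.8% on average at E18.5.

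Over the 5 beta members, Tubb6 held a like share in both stages, 59.3% ± 5.02 in adults and 59.2% ± 2.91 at E18.5. Tubb2a took 31.2% ± 5.93 in adults and 15.5% ± 1.61 at E18.5, and Tubb2b took 4.22% ± 1.72 in adults and 25.3% ± 1.66 at E18.5. These shares leave out Tubb4b, a widely expressed beta-tubulin outside the 10 genes. Tubb4b averaged 246 CPM in adults (range 130 to 597) and 139 CPM at E18.5 (range 98.8 to 174). With Tubb1, Tubb4a and Tubb4b counted in the total, Tubb4b took 81.1% ± 8.36 of beta-tubulin in adults and 22.4% ± 2.49 at E18.5, and Tubb6 took 10.6% ± 4.27 in adults and 45.7% ± 2.97 at E18.5.

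The 5 alpha members summed to 506 ± 74.3 CPM per kilobase in adult soleus and 120 ± 21.5 in E18.5 soleus, and to 838 ± 45.8 in adult gastrocnemius and 118 ± 17.7 in E18.5 gastrocnemius. In the thigh they summed to 625 ± 69.8 CPM per kilobase in adult vastus intermedius and 154 ± 19.1 at E18.5, and to 1093 ± 256 in adult vastus lateralis and 166 ± 21.7 at E18.5 (SD). The 5 beta members were lower in adults, with 23.6 to 38.7 CPM per kilobase as group means in adults and 295 to 315 at E18.5. The ratio of summed alpha to summed beta members was 15.9 ± 3.22 in adult soleus and 0.399 ± 0.0557 in E18.5 soleus, and 33.7 ± 5.75 in adult gastrocnemius and 0.379 ± 0.0562 in E18.5 gastrocnemius. In the thigh it was 16.4 ± 2.88 in adult vastus intermedius and 0.533 ± 0.0938 at E18.5, and 46.6 ± 9.39 in adult vastus lateralis and 0.574 ± 0.131 at E18.5. Among adult muscles it was thus higher in the fast-biased than in the slow-biased ones. With the other family genes included, a total chosen after seeing the data, the ratio of alpha to beta was close in the 4 adult muscles, at 4.06 ± 0.636 in soleus and 4.23 ± 0.360 in gastrocnemius, and 4.24 ± 0.454 in vastus intermedius and 4.26 ± 0.255 in vastus lateralis. At E18.5 it was 0.308 ± 0.0398 in soleus and 0.299 ± 0.0385 in gastrocnemius, and 0.401 ± 0.0622 in vastus intermedius and 0.437 ± 0.0869 in vastus lateralis. All adult libraries lay above 1 and all E18.5 libraries below it, with the limit that the Tuba1, Tubb2 and Tubb5 counts may lack reads.

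**Figure D3:**
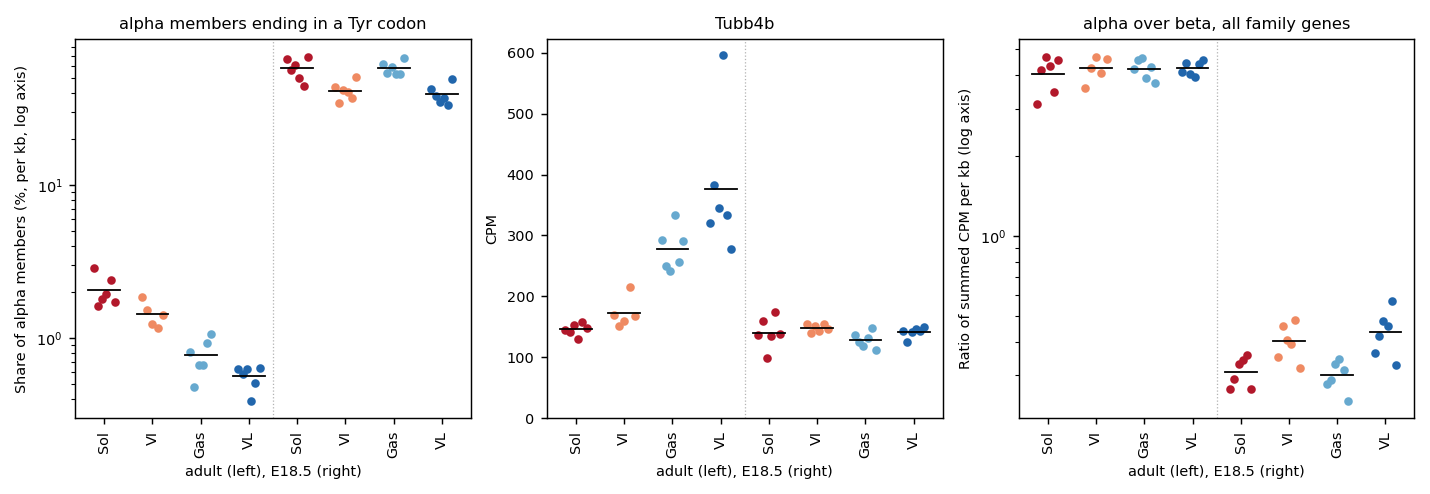
Points are libraries, with lines at group means. The left panel shows the share of alpha members that end in a tyrosine codon (percent per kilobase, log axis), the middle panel Tubb4b in CPM, and the right panel the ratio of summed alpha to summed beta tubulin per kilobase (log axis), which is 3.11 to 4.70 in adults and 0.240 to 0.570 at E18.5.

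Slow-biased and fast-biased adult muscles differed in 8 of the 9 members that passed the filter on low counts. The stated reason for choosing the genes was the rise with stage and not this contrast, but earlier results of these data were known. Tuba4a and Tuba8 were lower, and Tuba1a, Tuba1b, Tuba1c, Tubb2a, Tubb2b and Tubb6 higher, in the slow-biased muscles. Of all 14304 genes tested, 66.0% were called in this contrast (edgeR's quasi-likelihood test, Benjamini-Hochberg adjusted p under 0.05), so a call alone is common here. Tuba8 had 121, 164 and 219 CPM in slow-biased libraries (lowest, median, highest, n = 11) and 260, 356 and 606 CPM in fast-biased libraries (n = 12). The groups did not overlap, and the log2 fold change was -1.06 ± 0.09 (SE; edgeR's quasi-likelihood test, adjusted p = 3.94e-10). Tuba4a had 616, 871 and 1109 CPM in slow-biased libraries and 1214, 1344 and 2365 CPM in fast-biased libraries, again with no overlap, and fell by 0.66 ± 0.09 on the log2 scale (edgeR, adjusted p = 1.65e-06). The Tuba4a gap depends on TMM, which took its adult over E18.5 log2 ratio from 2.24 to 2.93 in soleus and from 2.53 to 3.66 in gastrocnemius. Vastus intermedius of animal E held 15233 of 19000949 counts and gastrocnemius of animal C 15381 of 19246902, so on plain totals the groups overlap. The slow-to-fast difference was not tested on plain totals. The order of adult levels for both genes was vastus lateralis, gastrocnemius, vastus intermedius and soleus. In TMM-scaled CPM gastrocnemius and vastus intermedius stood apart, while the ranges of vastus lateralis and gastrocnemius, and of vastus intermedius and soleus, overlapped.

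Among the members tested, Tubb2b had the largest difference in the other direction. It had 2.38, 3.68 and 5.70 CPM in slow-biased libraries and 0.512, 1.43 and 2.39 CPM in fast-biased libraries, which overlapped only at the edge, with a log2 fold change of 1.36 ± 0.21 (edgeR, adjusted p = 3.40e-06). Tubb2a had 13.4, 19.4 and 31.5 CPM in slow-biased libraries and 6.49, 11.5 and 17.5 CPM in fast-biased libraries (log2 fold change 0.80 ± 0.14, adjusted p = 2.78e-05, edgeR). Tubb6 ranged from 27.8 to 41.2 CPM in slow-biased libraries (mean 34.6) and from 20.9 to 33.2 CPM in fast-biased libraries (mean 26.3) (log2 fold change 0.44 ± 0.08, adjusted p = 2.11e-05, edgeR). The Tuba1 genes rose too, Tuba1a by 0.68 ± 0.15, Tuba1b by 0.58 ± 0.13 and Tuba1c by 0.79 ± 0.23 (edgeR, adjusted p = 3.43e-04, 2.80e-04 and 0.00376), with overlapping libraries. Tubb5 did not pass (log2 fold change -0.27, 95% interval -1.38 to 0.83, adjusted p = 0.682, edgeR), and Tubb3 was removed by the filter, with 0.194 to 0.736 CPM in slow-biased and 0 to 0.419 CPM in fast-biased libraries. With no filter (edgeR) and by DESeq2, 9 members were called, Tubb3 in addition, on 81 counts in all slow-biased and 18 in all fast-biased libraries. Of all genes tested, 10029 of 20709 were called with no filter and 9959 of 17885 by DESeq2. The median log2 fold change was 0.58 over the 9 members and 0.08 over all genes tested.

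Both muscle pairs showed this pattern in adults. In soleus minus gastrocnemius, 5 members rose (Tuba1a, Tuba1b, Tuba1c, Tubb2a and Tubb2b) and Tuba4a and Tuba8 fell, where 53.5% of all genes were called. In vastus intermedius minus vastus lateralis, 5 rose (Tuba1a, Tuba1b, Tubb2a, Tubb2b and Tubb6) and the same 2 fell, where 52.2% of all genes were called. Tuba8 fell by 0.97 ± 0.12 in the shank pair and by 1.16 ± 0.13 in the thigh pair (edgeR, adjusted p = 6.36e-07 and 1.62e-07). Tuba1c was 2.31 CPM in soleus and 0.966 CPM in gastrocnemius with no overlap (log2 fold change 1.29 ± 0.32, adjusted p = 0.00157, edgeR), and 1.92 CPM in vastus intermedius and 1.61 CPM in vastus lateralis with overlap (0.30 ± 0.33, adjusted p = 0.455, edgeR). Whether the pairs differ for Tuba1c was not tested. Tubb6 did not pass in the shank pair (0.23 ± 0.10, adjusted p = 0.0733, edgeR) but did with the animal as a replicate block (adjusted p = 0.0320, edgeR). The shank calls of Tuba1a and Tubb2a were lost without animal C (adjusted p = 0.0551 and 0.0563, edgeR) and that of Tubb2a also without animal F (0.0591).

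At E18.5 no difference in level between slow-biased and fast-biased muscles passed the test for any member. By edgeR's quasi-likelihood test 0 of 9 members passed, with 0.368% of 15751 genes called in the joint contrast, 0.286% in soleus minus gastrocnemius and 0.0317% in vastus intermedius minus vastus lateralis. At an unadjusted p under 0.05 edgeR called 1738, 1351 and 1013 genes in these contrasts, and DESeq2 called 257, 164 and 19 at its adjusted p. Log2 fold changes ran from -0.17 ± 0.44 for Tuba8 to 0.20 ± 0.24 for Tubb5. Tubb2b had 115, 149 and 186 CPM in slow-biased libraries and 107, 150 and 184 CPM in fast-biased libraries (log2 fold change 0.03 ± 0.09, adjusted p = 0.964, edgeR). Tuba4a had 69.8, 150 and 237 CPM in slow-biased libraries and 59.8, 146 and 266 CPM in fast-biased libraries (-0.05 ± 0.15, adjusted p = 0.960, edgeR), so the ranges nearly coincided. Shares were also compared within animals for all 10 members in both muscle pairs, as a description with no test. A few of these differed one way in every animal. From vastus intermedius minus vastus lateralis, the share of Tubb2b among beta members differed by 2.76 percentage points and that of Tuba1c among alpha members by 0.293 points (each higher in 6 of 6 animals). The share of Tubb3 in soleus minus gastrocnemius differed by 0.0270 points (higher in 6 of 6). It rests on 38 counts in all E18.5 soleus and 10 in all E18.5 gastrocnemius libraries.

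The change of the slow-to-fast difference between stages, the adult log2 fold change minus that at E18.5, was tested in 1 fit of all 47 libraries. It passed for 8 of 10 members, where 50.8% of 16402 genes did. It was positive for Tuba1a (0.55 ± 0.15), Tuba1b (0.65 ± 0.15), Tuba1c (0.82 ± 0.22), Tubb2a (0.64 ± 0.15), Tubb2b (1.31 ± 0.20) and Tubb6 (0.51 ± 0.12), with adjusted p (edgeR) between 3.93e-07 for Tubb2b and 0.00168 for Tuba1a. It was negative for Tuba4a (-0.64 ± 0.18, adjusted p = 0.00352, edgeR) and Tuba8 (-0.90 ± 0.37, adjusted p = 0.0385, edgeR). The Tuba8 call rests on few E18.5 reads. Its adjusted p was 0.279 without E18.5 animal A, 0.195 without E18.5 animal B, 0.0566 to 0.0827 without adult animals A, D, E or F, and 0.0501 with no filter on low counts (edgeR).

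**Figure D4:**
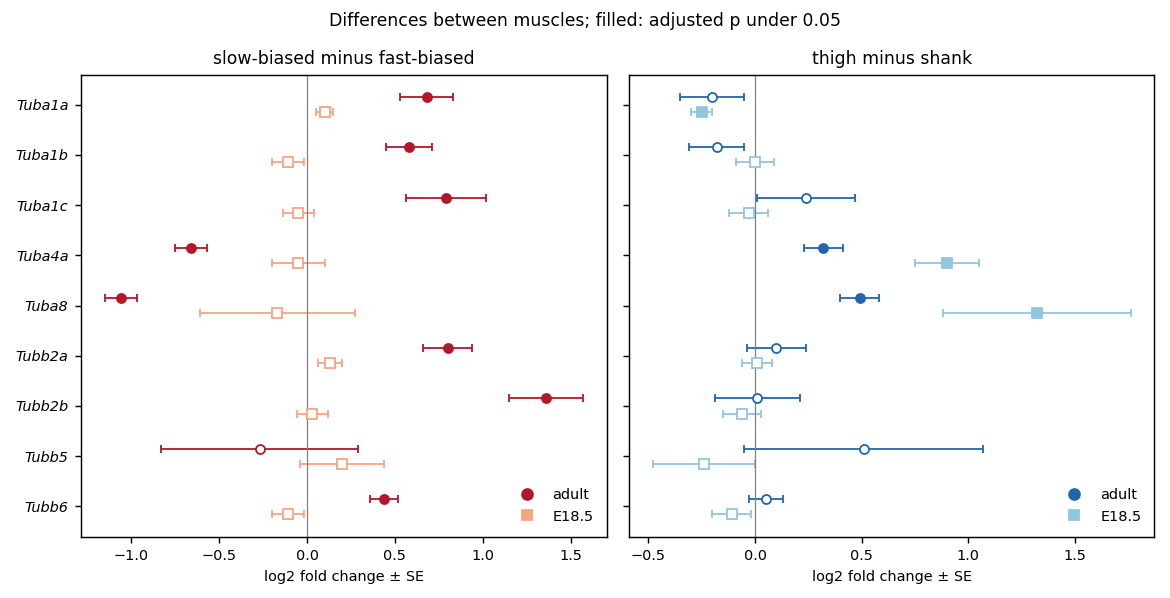
Points are log2 fold changes with bars of 1 SE, adult above E18.5 for each gene, filled where the adjusted p was under 0.05. In the slow-biased minus fast-biased panel the adult values run from -1.06 for Tuba8 to 1.36 for Tubb2b and no E18.5 value is filled, and in the thigh minus shank panel Tuba4a and Tuba8 are filled at both stages.

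Between thigh and shank muscles 3 of 9 members were called at E18.5, where 24.8% of all genes were, and 2 of 9 in adults, where 19.1% were, so the members' shares were near those of all genes. At E18.5 Tuba4a had 140, 181 and 266 CPM in thigh libraries (lowest, median, highest, n = 12) and 59.8, 103 and 181 CPM in shank libraries (n = 12). It rose by 0.90 ± 0.15 on the log2 scale (edgeR, adjusted p = 1.07e-04). Tuba8 had 0.0795, 0.416 and 0.732 CPM in thigh libraries and 0, 0.128 and 0.318 CPM in shank libraries (1.32 ± 0.44, adjusted p = 0.0300, edgeR). This rests on 0 to 28 counts a library, and with the animal as a replicate block the adjusted p was 0.0515, without animals B, C, D or E 0.0516 to 0.150, and with no filter 0.0514 (edgeR). Tuba1a fell, with 37.6, 42.1 and 50.4 CPM in thigh libraries and 43.0, 51.6 and 58.0 CPM in shank libraries (-0.25 ± 0.05, adjusted p = 0.00131, edgeR). Of the skeletal muscle fibre markers 6 of 11 rose in thigh muscles, the direction of Tuba4a and Tuba8 and not of Tuba1a. Their summed level was 31959 to 59792 CPM in thigh and 16038 to 41184 CPM in shank libraries. Satellite cell and myoblast markers fell for 4 of 6 (326 to 524 CPM in thigh and 397 to 603 CPM in shank libraries), and none of either list was at 0 in every library. Their part in the result was not tested.

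In adults Tuba8 had 164, 353 and 606 CPM in thigh libraries (n = 11) and 121, 223 and 359 CPM in shank libraries (n = 12), a log2 fold change of 0.49 ± 0.09 (edgeR, adjusted p = 4.72e-04). Tuba4a had 867, 1280 and 2365 CPM in thigh libraries and 616, 1085 and 1352 CPM in shank libraries (0.32 ± 0.09, adjusted p = 0.0181, edgeR). The groups overlapped for both. No other member passed. The Tuba4a call was lost without animal B, D or E (adjusted p = 0.0517, 0.0665 and 0.0881, edgeR). Vastus lateralis of animal D held the highest adult level of Tuba4a and Tuba8.

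Markers of other cell types moved with the slow-to-fast difference in adults. Of all 14304 genes tested in this contrast 66.0% were called, 5139 higher and 4302 lower in slow-biased muscles. A call of a marker is therefore common here. All 6 endothelial markers rose in slow-biased muscles, with sums of 595 to 834 CPM in slow-biased and 309 to 561 CPM in fast-biased libraries. All 6 leukocyte markers rose (63.0 to 130 CPM in slow-biased and 21.6 to 78.4 CPM in fast-biased libraries), as did all 6 smooth muscle and pericyte markers (359 to 684 CPM in slow-biased and 142 to 405 CPM in fast-biased libraries). Of the Schwann cell markers 5 of 6 rose (73.6 to 417 CPM in slow-biased and 8.18 to 104 CPM in fast-biased libraries), and of the fibroblast markers 3 of 6 (1541 to 2534 CPM in slow-biased and 875 to 2267 CPM in fast-biased libraries). The 6 neuronal markers were too low to test in adults, at 0.158 to 0.941 CPM in slow-biased and 0 to 1.52 CPM in fast-biased libraries. The part of these cells in the higher Tuba1 and Tubb2 levels was not tested. Of the satellite cell and myoblast markers 3 of 5 tested rose and 1 fell, while their sum was 33.9 to 56.2 CPM in slow-biased and 50.6 to 85.1 CPM in fast-biased libraries. Of the fibre markers 6 of 11 rose and 4 fell in slow-biased muscles, and their sum, 75242 to 163308 CPM in slow-biased and 191502 to 349434 CPM in fast-biased libraries, was in the order of Tuba4a and Tuba8.

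The genes outside the members that make, modify or use microtubules were read from lists chosen with earlier results known. Over all 16505 genes tested between stages 83.7% were called, 6556 higher and 7266 lower in adults, and 66.0% were called between slow-biased and fast-biased adult muscles. The counts of each list stand beside these shares, and no trait of a list is read from them. Mean CPM by stage cover all libraries used of that stage. The fold changes between stages leave out vastus intermedius, so they need not equal the ratio of these means. Among other tubulins, 6 of 10 were tested between stages (counts summed over 3 muscles per animal), and 3 rose and 2 fell in adults, with a median log2 fold change of 0.05 against -0.09 over all genes. Delta-tubulin Tubd1, a centriole component, had 13.2 CPM in adults and 5.22 CPM at E18.5 (1.39 ± 0.08), and Tubb4b rose by 0.86 ± 0.07 (edgeR, adjusted p = 1.82e-10 and 1.19e-08). Epsilon-tubulin Tube1 fell by 1.91 ± 0.11 and Tubb4a by 0.68 ± 0.12 (edgeR, adjusted p = 1.80e-10 and 9.33e-05). In slow-biased adult muscles 1 rose and 4 fell. Tubb4b had 158 CPM in slow-biased and 327 CPM in fast-biased muscles (-0.99 ± 0.10, adjusted p = 6.35e-09, edgeR), Tube1 fell by 0.63 ± 0.17 (adjusted p = 0.00252, edgeR), and Tubb4a rose by 0.78 ± 0.21 (adjusted p = 0.00260, edgeR).

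Among tubulin-modifying enzymes, 5 of 18 tested rose and 12 fell in adults, where 83.7% of all genes were called. The vasohibin Vash2, which removes the terminal tyrosine, had 2.65 CPM in adults and 134 CPM at E18.5 (-5.60 ± 0.15, adjusted p = 6.09e-14, edgeR), and its paralog Vash1 had 19.9 CPM in adults and 124 CPM at E18.5 (-2.83 ± 0.10, adjusted p = 4.70e-13, edgeR). The ligase Ttl, which puts the tyrosine back, had 28.8 CPM in adults and 73.1 CPM at E18.5 (log2 fold change -1.40, adjusted p = 3.36e-10, edgeR). Ttll7, a polyglutamylase that acts mainly on beta-tubulin tails, had 240 CPM in adults and 5.80 CPM at E18.5 (5.53 ± 0.14, adjusted p = 2.31e-14, edgeR). Agbl1, which trims glutamates, rose by 2.35 ± 0.19 (adjusted p = 1.47e-08, edgeR). Between adult muscles 5 rose and 7 fell. Ttll7 had 75.4 CPM in slow-biased and 392 CPM in fast-biased muscles (-2.35 ± 0.11, adjusted p = 6.03e-14, edgeR), and Vash2 fell by 1.03 ± 0.23, with 1.65 CPM in slow-biased and 3.56 CPM in fast-biased muscles. The more abundant Vash1 had 26.1 CPM in slow-biased and 14.1 CPM in fast-biased muscles (log2 fold change 0.93, adjusted p = 4.22e-07, edgeR), and Ttl was also higher in slow-biased than in fast-biased muscles (0.73, adjusted p = 1.91e-08, edgeR). Vash1 in this contrast and Ttl were named after their values were seen. Agbl1 had 49.6 CPM in slow-biased and 18.2 CPM in fast-biased muscles (1.81 ± 0.20, adjusted p = 3.72e-08, edgeR). Agbl2 had 1.16 CPM in slow-biased and 0.181 CPM in fast-biased muscles. The latter is near the limit of detection, so no fold change is given. None of the 18 passed between muscles at E18.5.

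Of the folding genes, the prefoldin, chaperonin and tubulin cofactor genes that fold alpha- and beta-tubulin and join them, 7 of 21 rose and 12 fell in adults, where 83.7% of all genes were called, and 1 rose and 9 fell in slow-biased adult muscles, where 66.0% were. Tbca, which holds folded beta-tubulin, fell by 0.96 ± 0.06 with stage and was the 1 that rose in slow-biased muscles (0.60 ± 0.10, adjusted p = 6.28e-06, edgeR). The prefoldin gene Pfdn1 rose with stage (0.97 ± 0.06) and fell in slow-biased muscles (-0.58 ± 0.07, adjusted p = 8.62e-08, edgeR). Of the 3 genes of tubulin mRNA autoregulation, Ttc5, which recognises the nascent tubulin chain, fell by 0.94 ± 0.07 and Scaper, its adaptor, by 0.25 ± 0.08 with stage, while Cnot11, a subunit of the deadenylase complex, rose by 0.79 ± 0.05. Cnot11 fell by 0.61 ± 0.05 in slow-biased adult muscles (adjusted p = 4.03e-10, edgeR), and the others did not pass.

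Of the microtubule-associated proteins and stathmins, 12 of 30 tested rose and 14 fell in adults, where 83.7% of all genes were called. Mapt, which encodes tau, had 76.6 CPM in adults and 1.16 CPM at E18.5 (6.40 ± 0.27, adjusted p = 5.40e-12, edgeR), and Clip1, a plus-end tracking protein, 612 CPM in adults and 63.1 CPM at E18.5 (3.35 ± 0.09, adjusted p = 8.18e-14, edgeR). Dcx, doublecortin of migrating neurons, had 0.0958 CPM in adults and 62.1 CPM at E18.5, and Mtus2 had 0.128 CPM in adults and 11.1 CPM at E18.5. Both are near the limit of detection in adults and passed the filter through E18.5, so no fold change is given. In slow-biased adult muscles 14 of 28 tested rose, among them the stathmins Stmn2 (1.54 ± 0.20) and Stmn4 (1.41 ± 0.25), and 7 fell, among them the end-binding protein Mapre3 (-1.08 ± 0.09) and Tppp (-0.86 ± 0.16).

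Of 9 severing and depolymerising genes 2 rose and 7 fell in adults, where 83.7% of all genes were called. Fignl1 had a low level in adults, 0.420 CPM, and 21.3 CPM at E18.5 (-5.64 ± 0.27). The mitotic kinesin Kif2c had 0.204 CPM in adults, near the limit of detection, and 23.5 CPM at E18.5. Spast, which encodes the severing enzyme spastin, rose with stage (0.81 ± 0.05) and fell in slow-biased adult muscles (-0.82 ± 0.05, adjusted p = 3.85e-12, edgeR), where 1 of 8 rose and 5 fell. Of the 16 nucleation and anchoring genes 8 rose and 3 fell in adults, among them the nuclear envelope gene Sun2 (1.84 ± 0.11) and Akap9, which anchors microtubules at the Golgi (1.37 ± 0.08). In slow-biased adult muscles 3 rose and 10 fell, with Pcnt, pericentrin, at 0.56 ± 0.07 and Mzt1, of the gamma-tubulin complex, at -0.86 ± 0.08. Of 13 motor genes 7 rose and 5 fell in adults, with Kif1c at 606 CPM in adults and 72.6 CPM at E18.5 (3.08 ± 0.08, adjusted p = 4.02e-14, edgeR) while the dynein intermediate chain Dync1i1 had 0.143 CPM in adults, near the limit of detection, and 8.20 CPM at E18.5. In slow-biased adult muscles 1 of 12 motors rose, Kif5a (1.52 ± 0.23), and 5 fell, among them Kif1c (-0.60 ± 0.10). At E18.5, 0 of the genes on these lists passed between slow-biased and fast-biased muscles.

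Across the 23 adult libraries the genes whose log2 CPM followed Tuba8 most closely were Cd99l2 (Pearson r = 0.98), Arf1 (0.976) and Smyd1 (0.976). For Tuba4a they were Sod1 (0.97), Acta1, the skeletal alpha-actin gene (0.97), and Srf (0.968). For Tubb2b the closest was Srgap1 (0.918), and for Tubb6 it was Mad2l1bp (0.899). These are descriptions over libraries that share animals and muscles.

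The authors' deposited table of adult muscles gives log2 fold changes, slow-biased minus fast-biased, of -1.10 for Tuba8, -0.67 for Tuba4a, 1.38 for Tubb2b and 2.09 for Tubb3. In the authors' deposited table of stage over all muscles, coded E18.5 minus adult, Tuba8 stands at -9.95 and Tubb2b at 5.90. The left-out library matched the E18.5 libraries for these genes. With all libraries scaled together it had 0.503 CPM of Tuba8, against 165 to 220 CPM in the other adult vastus intermedius libraries and 0.189 to 0.535 CPM in E18.5 vastus intermedius, and 128 CPM of Tubb2b, against 2.56 to 4.98 CPM and 122 to 187 CPM. Embryonic myosin Myh3 stood at 8921 CPM in it, against 6.22 to 22.9 CPM in the others.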

How the data were processed

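The authors deposited raw read counts per gene. STAR 2.7.11 and featureCounts (Subread 2.0.6) on mm10 are named per the submitters' processing notes, beside FastQC 0.11.5, Trimmomatic 0.39.0 and DESeq2 1.44.0. The annotation, the strand setting, the read length and the treatment of multi-mapped reads were not given in the sources used here. Per the labels' protocols RNA had an integrity number above 7. The authors also deposited comparison tables of log2 fold changes and adjusted p-values. Totals were 14935541 to 32383982 counts per library. The 6 date tags of the column names at each stage were used as animals (A to F), since the labels say that the muscles came from the same mice; deviations correlated by 0.111 within adult animals and 0.18 within E18.5 animals, against -0.022 and -0.036 between animals.

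Counts were tested with edgeR 4.0.16 in R 4.3.3 (TMM, filterByExpr, quasi-likelihood F test, Benjamini-Hochberg adjustment over all genes tested, threshold 0.05), with standard errors taken as the log2 fold change over the root of F, and with 4 muscles as levels in 1 fit per stage and 8 levels for the change between stages. List genes were tested between stages on counts summed over soleus, gastrocnemius and vastus lateralis of each animal, 6 against 6. The fits were tested on simulated data. Shares used CPM per kilobase, with the length column of the count table. The named genes were all 10 members, the 2 highest and 2 lowest called genes of each list and comparison, and the 3 genes with the highest r; some of these genes and sequences are not reported here. Of the lists, 122 of 122 entries were found. The members and lists were chosen with earlier results of these data known. Alternatives were DESeq2 1.42.0, other scalings, no filter, the animal as a block, leaving out animals, and keeping the left-out library. Counting error alone is covered by intervals and floors.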

Additional observations from a re-analysis of the deposited data

Results flagged for a closer look

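In 5 of 80 combinations of gene and group, 1 library lay far from the others, and chance gives about 1 in 20, that is 4. Tuba1a was 47.1 CPM in E18.5 vastus lateralis of animal F, against 39.6 to 41.8 CPM in the other libraries. Tuba1b was 60.6 CPM in E18.5 soleus of animal F, against 43.3 to 49.3 CPM. Tubb2a was 7.61 CPM in adult vastus lateralis of animal D, against 10.5 to 11.8 CPM. Tubb3 was 0.419 CPM in adult gastrocnemius of animal F, against 0 to 0.144 CPM. Tubb5 was 0.105 CPM in adult soleus of animal E, against 2.81 to 3.78 CPM.

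The slow-to-fast difference itself differed between adults and E18.5 for 8 members by edgeR's quasi-likelihood test, where 50.8% of all 16402 genes tested were called. The Tuba8 call rests on few E18.5 reads, with an adjusted p of 0.0385 that was 0.279 without E18.5 animal A (edgeR). The log2 fold change in adults and at E18.5, and the difference of the 2, were 0.68, 0.10 and 0.55 for Tuba1a, 0.58, -0.11 and 0.65 for Tuba1b, 0.79, -0.05 and 0.82 for Tuba1c, and -0.66, -0.05 and -0.64 for Tuba4a. They were -1.06, -0.17 and -0.90 for Tuba8, 0.80, 0.13 and 0.64 for Tubb2a, 1.36, 0.03 and 1.31 for Tubb2b, and 0.44, -0.11 and 0.51 for Tubb6. Differences come from 1 joint fit and need not equal the subtraction of the values by stage.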

How the results depend on the processing

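The count of members called kept within 1.5 times of its value for 7 of the 9 muscle comparisons under every alternative run. Among these are the slow-to-fast comparisons at E18.5, with 0 members called and at most 0.368% of all genes called. For them the rule says little. With the left-out library kept, 2 members were called in adult soleus minus gastrocnemius in place of 7. Of all genes, 5898 of 14220 were then called there, in place of 7657 of 14304. In adult thigh minus shank 0 members were called in place of 2, and 1118 of 14220 genes in place of 2736 of 14304. Leaving out an animal gave 1 to 2 members in adult thigh minus shank, where 1477 to 2745 genes were called. With the animal as a replicate block the call of Tubb6 in adult soleus minus gastrocnemius was gained (adjusted p = 0.0320, edgeR) and that of Tuba8 in E18.5 thigh minus shank was lost (0.0515); no other member's call changed. Without adult animal A, C or D, Tuba1b lost its call in vastus intermedius minus vastus lateralis (adjusted p = 0.0508, 0.0627 and 0.0520, edgeR). On plain totals the adult over E18.5 log2 ratio of Tubb3 was -0.10 in gastrocnemius and -0.74 in vastus lateralis, against 1.04 and 0.31, and no other member reversed. The mean adult share of Tuba8 among alpha members was 17.6% on counts not divided by length, against 23.4%. Counting Tubb1, Tubb4a and Tubb4b among the beta genes, chosen after seeing the data, took the adult share of Tubb6 to 10.6%, against 59.3%. The cause of these shifts was not tested, beyond what each alternative's construction fixes. Depth limits Tuba8 at E18.5 and Tubb3.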
